A study of Mus musculus with 24 samples.

Results

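CD45+ cells from tumors of trastuzumab-treated mice were compared with CD45+ cells from untreated tumors across all 16996 genes of the normalized expression data. The column names chose the samples, and they gave 6 trastuzumab samples and 6 untreated samples, 12 of the 24 samples in all. The comparison was also made with 4 samples left out, namely B1 and C1 of the untreated group and E2 and B3 of the trastuzumab group, which left 4 samples in each group. The other 12 samples came from mice given T-DM1 or T-PNU, which are HER2-directed antibody-drug conjugates. In the comparison of trastuzumab with untreated samples they entered only through the fit's estimate of the spread between samples. Contrasts with these 12 samples themselves are given last.

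All mice were wild-type female Balb/c mice, labelled as 10 to 12 weeks old, with tumors grown in the mammary fat pad from injected EMT6-hHER2 cells. EMT6-hHER2 is a murine breast cancer line that was given human HER2, and the line used was grown from a single sorted cell, so the tumors represent 1 clone. Trastuzumab was given intravenously at 20 mg/kg to tumors of 80 mm3, the untreated cohort received nothing, and tumors were taken on day 10. Untreated mice therefore had no injection of a control antibody. RNA of bead-enriched CD45+ cells was sequenced from 1 library per mouse, and samples are named by their wells (untreated A1 to F1; trastuzumab E2, F2, G2, H2, A3 and B3). The mouse numbers in the column names ran in separate series for untreated and trastuzumab mice, so the series and the treatment cannot be told apart.

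Trastuzumab is an antibody against human HER2, a receptor tyrosine kinase that drives growth of some breast cancers. Apart from blocking the receptor, the bound antibody can be recognized by Fc gamma receptors on natural killer (NK) cells, macrophages and neutrophils, which can kill or engulf the coated tumor cell, and it can start the complement cascade. CD45, encoded by Ptprc, is carried by nearly all leukocytes but not by tumor cells, fibroblasts or endothelial cells, so a CD45+ preparation should hold mainly tumor-infiltrating immune cells.

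The 2 groups did not separate as a whole. Over the 1000 most variable genes, 5.07% of the squared distances lay between the trastuzumab and the untreated group (exact permutation test over all assignments of 6 against 6, p = 0.576). With 4 against 4 samples the share was 18.5% (exact permutation test over 70 assignments, p = 0.229). Untreated B1 and trastuzumab E2 and B3 lay together at 1 end of the first principal component, at scores of -42.5, -36.7 and -23.8, while the other 9 samples lay between -2.41 and 26.5. The immunoglobulin genes Ighg2c, Ighg2b and Ighd, the B cell gene Ms4a1 and the lymphocyte gene Lef1 were among those that weighed most at that end. Untreated C1 lay apart on the second component at -14.6, on the side of the cytotoxic genes Nkg7, Prf1 and Gzmb. Ptprc itself had a level (log2 normalized expression) between 14.2 and 15.1 in trastuzumab samples and between 14.3 and 15.2 in untreated samples, and its log2 fold change of -0.026 was smaller than its SE of 0.19. A log2 fold change is always the trastuzumab mean minus the untreated mean.

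No gene of 16996, a count of 0, met the study's thresholds (fold change above 2 at a false discovery rate under 0.01), although 1491 had an unadjusted p under 0.05 in limma. The study used these thresholds with DESeq2 on counts, whereas here they were applied to limma on log2 values. At an adjusted p under 0.05 with no fold threshold, 42 genes were higher in trastuzumab samples (0.247% of all genes) and 2 were lower (0.0118%). At an unadjusted p under 0.05, 903 genes were higher (5.31%) and 588 were lower (3.46%). The 6 trastuzumab values all lay above the 6 untreated values for 50 genes (0.294%) and all below them for 42 genes (0.247%). The median log2 fold change over all genes was -0.015, and 45.5% of genes were higher.

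The 44 genes at an adjusted p under 0.05 depended on which samples were in the fit. Without B1, C1, E2 and B3 no gene passed, the smallest adjusted p in limma was 0.0691, and 3.09% of genes were higher and 1.99% lower at an unadjusted p under 0.05. All 44 genes kept their direction and had an unadjusted p under 0.05 in that fit, and the median log2 fold change of the 42 higher genes went from 0.55 to 0.47. That fit held 20 of the 24 samples on which the genes had been selected, so it is not a separate test of them. A fit of only the 12 untreated and trastuzumab samples also left 0 genes (smallest adjusted p 0.183, and 1065 genes under 0.05 before adjustment), so the 44 calls rested on the spread shared with the T-DM1 and T-PNU samples. Leaving out B1, D1, F1, E2, F2 or B3 alone also left 0 genes, and leaving out A3 left 6, whereas leaving out E1 gave 94 and leaving out H2 gave 97.

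**Figure D1:**
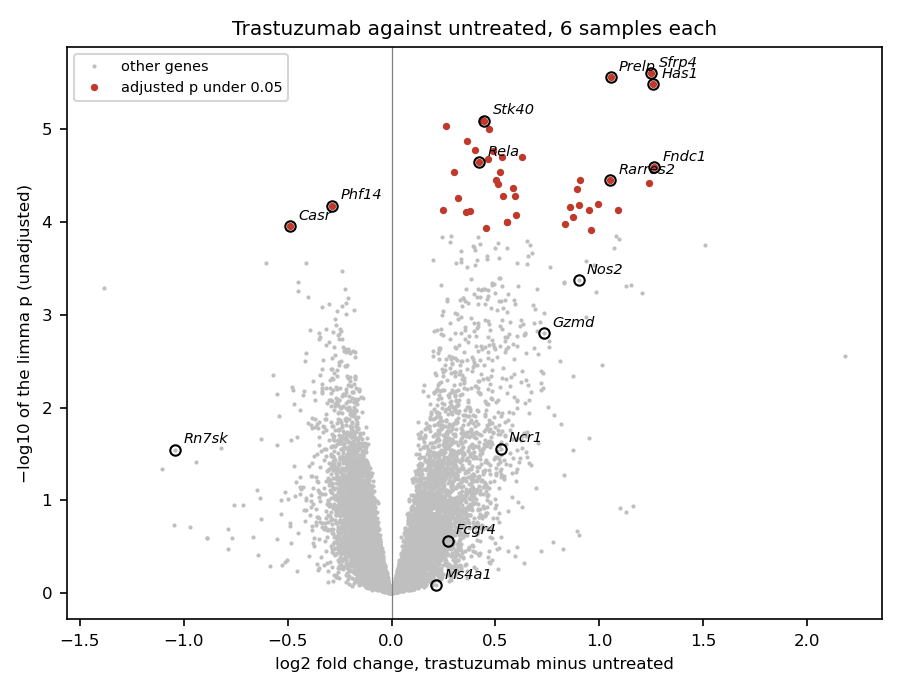
Log2 fold change (trastuzumab minus untreated, x axis) against -log10 of the unadjusted limma p (y axis) for 16996 genes. The 44 genes at an adjusted p under 0.05 are red, with 42 to the right of 0 and Phf14 and Casr to the left, and the Fc receptor, NK cell and B cell genes ringed in black lie below them.

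The 42 higher genes are described below by the known roles of their proteins, first those of the extracellular matrix or secreted, then those that act inside the cell. This grouping was made after the genes were seen and was not tested. Sfrp4, a secreted antagonist of Wnt signaling (chr13:19623104-19632994, GRCm38), ran from 3.81 through a median of 3.97 to 4.30 in untreated samples. In trastuzumab samples Sfrp4 ran from 4.35 through 5.43 to 5.72. The groups did not overlap, and the log2 fold change was 1.25 ± 0.20 (SE, n = 6 per group; limma adjusted p = 0.0186; two-sided exact permutation p = 0.00216, the smallest that 6 against 6 samples allow).

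Prelp, a leucine-rich proteoglycan of connective tissue (chr1:133910304-133921414), ran from 5.35 through a median of 5.43 to 5.92 in untreated samples and from 6.09 through 6.53 to 7.18 in trastuzumab samples. The groups did not overlap, with a log2 fold change of 1.05 ± 0.17 (SE, n = 6 per group; limma adjusted p = 0.0186). Has1, a hyaluronan synthase (chr17:17843323-17855205), ran from 4.85 through 5.03 to 5.68 in untreated samples and from 5.63 through 6.46 to 7.07 in trastuzumab samples. Only trastuzumab G2 reached into the untreated range of Has1, and the log2 fold change was 1.26 ± 0.21 (SE, n = 6 per group; limma adjusted p = 0.0186). Col5a2, a chain of type V collagen (chr1:45374321-45503282), ran from 8.16 through 8.52 to 8.94 in untreated samples and from 9.13 through 9.54 to 9.84 in trastuzumab samples. All trastuzumab values of Col5a2 were above the untreated ones, by 0.96 ± 0.21 (SE, n = 6 per group; limma adjusted p = 0.0469).

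Other matrix and secreted genes among the 42 were Fndc1 (log2 fold change 1.27), Efemp1 (a fibulin of elastic tissue, 1.24), Nid1 (nidogen of basement membranes, 0.84), Mfap5 (a microfibril protein, 0.89), Slit3 (a guidance cue, 0.91) and Podn (0.49). Rarres2, which encodes the chemoattractant chemerin, rose by 1.05 with no overlap between groups. Serpina3n, a protease inhibitor, rose by 1.09, Lbp, the lipopolysaccharide-binding protein, by 0.95 and Pi16, a gene known from fibroblasts, by 0.86. In the comparison of 4 against 4 samples the log2 fold changes were 0.96 for Sfrp4, 1.00 for Prelp, 1.11 for Has1, 0.77 for Col5a2 and 1.07 for Rarres2.

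Marker lists of fibroblasts, endothelial cells and red blood cells had higher medians in trastuzumab samples, with 0 members at an adjusted p under 0.05, and their part in the result was not tested. In bulk samples, more cells of a type and more RNA per cell cannot be told apart. Of 15 measured fibroblast and matrix markers, 14 were higher in trastuzumab samples, 0 passed an adjusted p of 0.05 and 4 (Lum, Dcn, Postn and Col1a1) had an unadjusted p under 0.05. Their median log2 fold change was 0.29, against -0.015 over all genes. Counts of list members at an unadjusted p under 0.05 are to be read against the 5.31% of all genes that were higher at it. For counts without B1, C1, E2 and B3 that share was 3.09%. The count of 14 depended on single samples. It was 9 without C1 alone, 11 without B1 alone, 10 without F2 or G2 alone, and 13 to 15 without any other sample. The median ran from 0.19 to 0.34 with 1 sample left out. Lum, a collagen-binding proteoglycan, had a log2 fold change of 1.13 (limma adjusted p = 0.0856), Dcn, the proteoglycan decorin, 0.76 (adjusted p = 0.0646) and Col1a1, a chain of type I collagen, 0.70 (adjusted p = 0.463).

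As the level of a list in a sample, the values of its genes were each set against their 12-sample average and the differences averaged, on the log2 scale. The fibroblast and matrix level ran from -0.70 (C1) to 0.11 (F1) in untreated samples and from -0.13 (E2) to 0.45 (F2) in trastuzumab samples, so the groups overlapped. Without the 4 samples it was 0.30 ± 0.18 with trastuzumab and 0.02 ± 0.09 untreated (SD, n = 4), the median log2 fold change of the markers was 0.16 and 2 of them had an unadjusted p under 0.05. The endothelial level of 12 markers ran from -0.50 to 0.27 untreated and from -0.25 to 0.69 with trastuzumab, with 12 markers higher and a median log2 fold change of 0.20, and Plvap, an endothelial gene, had 0.51 (limma adjusted p = 0.422). Without the 4 samples 10 endothelial markers were higher, their median was 0.032 and Plvap had 0.25. The red blood cell level of 5 markers ran from -1.23 to 0.16 untreated and from -0.50 to 1.03 with trastuzumab, and all 5 markers were higher with a median of 0.70. Without the 4 samples all 5 stayed higher with a median of 0.91. An unadjusted p under 0.05 in limma was reached by 4 of them there, against 2 with all samples. Hba-a1 had a log2 fold change of 0.87 and Hbb-b1 of 0.83, and these globin genes have near-identical copies between which reads may be divided.

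**Figure D2:**
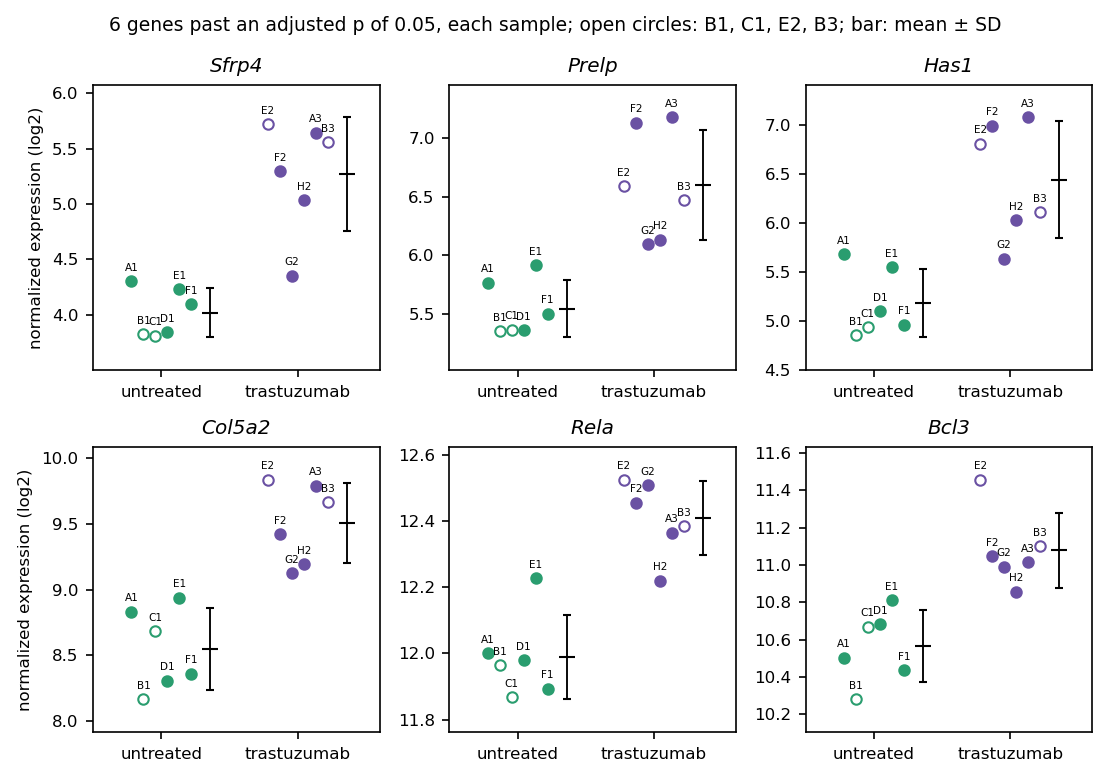
Normalized expression (log2, y axis) of 6 genes at an adjusted p under 0.05 in each untreated and trastuzumab sample (x axis), with the mean and SD of 6 samples as a bar and B1, C1, E2 and B3 as open circles. The groups of Sfrp4, Prelp, Col5a2 and Bcl3 do not overlap, G2 lies below A1 for Has1, and H2 lies below E1 for Rela.

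Other genes among the 42 encode proteins that act inside the cell. The examples below had log2 fold changes between 0.26 and 0.60. Rela, the p65 subunit of the transcription factor NF-kappa B (chr19:5637483-5648130), ran from 11.9 through a median of 12.0 to 12.2 in untreated samples. In trastuzumab samples Rela ran from 12.2 through 12.4 to 12.5. The ranges met only at untreated E1 and trastuzumab H2, and the log2 fold change was 0.42 ± 0.079 (SE, n = 6 per group; limma adjusted p = 0.0276).

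Bcl3, a nuclear partner of NF-kappa B (chr7:19808462-19822770), ran from 10.28 through a median of 10.59 to 10.81 in untreated samples and from 10.86 through 11.03 to 11.46 in trastuzumab samples. The groups did not overlap, with a log2 fold change of 0.51 ± 0.10 (SE, n = 6 per group; limma adjusted p = 0.030). Among 4 against 4 samples it was 0.36 for Rela and 0.37 for Bcl3. The 44 genes also held the kinase-like gene Stk40 (0.45), the lysophospholipid acyltransferase Mboat7 (0.26), the zinc finger genes Zfp703 (0.47) and Sp2 (0.53), the adaptor Cmip (0.40), the coactivator Wbp2 (0.36), the cytoskeletal gene Zyx (0.60) and the splicing factor genes Sf3b4 (0.50) and Sf3a2 (0.59).

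Sequences before the start site were set beside these results because the fold changes moved with base composition. The 250 bases before the RefSeq start (GRCm38.p6) are given for a pair of matrix genes and the NF-kappa B pair, read 5′ to 3′ on the strand of the gene. Capitals mark the GC box, GGGCGG on either strand, a motif known to be bound by Sp family factors. The windows were chr1:133921402-133921651 (minus strand) for Prelp, chr17:17855189-17855438 (minus strand) for Has1, chr19:5637291-5637540 (plus strand) for Rela and chr7:19822756-19823005 (minus strand) for Bcl3.
Prelp: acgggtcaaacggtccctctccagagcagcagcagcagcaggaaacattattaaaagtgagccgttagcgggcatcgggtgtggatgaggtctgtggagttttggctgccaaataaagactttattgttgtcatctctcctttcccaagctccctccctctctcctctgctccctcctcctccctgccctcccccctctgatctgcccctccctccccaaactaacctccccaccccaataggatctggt
Has1: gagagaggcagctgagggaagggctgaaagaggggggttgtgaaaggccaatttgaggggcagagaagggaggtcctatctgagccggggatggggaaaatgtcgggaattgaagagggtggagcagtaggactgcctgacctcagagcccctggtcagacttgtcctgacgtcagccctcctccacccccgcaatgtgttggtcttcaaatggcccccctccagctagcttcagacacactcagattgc
Rela: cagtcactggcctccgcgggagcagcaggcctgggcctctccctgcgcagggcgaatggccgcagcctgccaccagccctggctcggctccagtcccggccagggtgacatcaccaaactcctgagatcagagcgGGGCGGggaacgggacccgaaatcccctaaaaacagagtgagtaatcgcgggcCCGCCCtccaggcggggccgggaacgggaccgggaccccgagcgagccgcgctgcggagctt
Bcl3: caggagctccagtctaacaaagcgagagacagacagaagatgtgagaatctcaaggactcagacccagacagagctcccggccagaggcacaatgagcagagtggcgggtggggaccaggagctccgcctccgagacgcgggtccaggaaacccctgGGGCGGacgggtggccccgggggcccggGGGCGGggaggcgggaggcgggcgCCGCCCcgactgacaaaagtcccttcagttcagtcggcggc

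The GC box was found in 0 places for Prelp and Has1, in 2 for Rela and in 3 for Bcl3. These 4 genes do not stand for their groups. Among other matrix and secreted genes, Slit3 had 6, Podn had 2, Nid1, Fndc1 and Efemp1 had 1 each, and Pi16 and Serpina3n had 0. Among genes that act inside the cell, Stk40 had 3, Zyx had 2, and Wbp2 and Sp2 had 0. Windows were matched for 31 of the 42 higher genes, of which 22 (71.0%) held a GC box, against 56% of 11445 windows of all measured genes. The median GC content of the windows was 64.4% for the 31 genes and 59.2% for all genes. A match is a description of these letters and not a site of binding.

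Transcripts showed the same difference in composition. The median GC content of transcripts was 54.9% for the 42 higher genes and 49.6% for all genes, and it was 55.6% for genes higher and 46.1% for genes lower at an unadjusted p under 0.05. When the 8493 genes above median expression were divided into 10 classes of about equal size by GC content, the median log2 fold change was -0.069 in the lowest class and 0.17 in the highest. With 4 against 4 samples these values were -0.0092 and 0.10. The median deviation of the highest class minus that of the lowest ran from -0.40 (A1) to 0.21 (E1) in untreated samples and from -0.24 (H2) to 0.34 (E2) in trastuzumab samples, so the groups overlapped. With the trend of GC content removed in each sample, 49 genes passed an adjusted p of 0.05, and they included 38 of the 44.

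**Figure D3:**
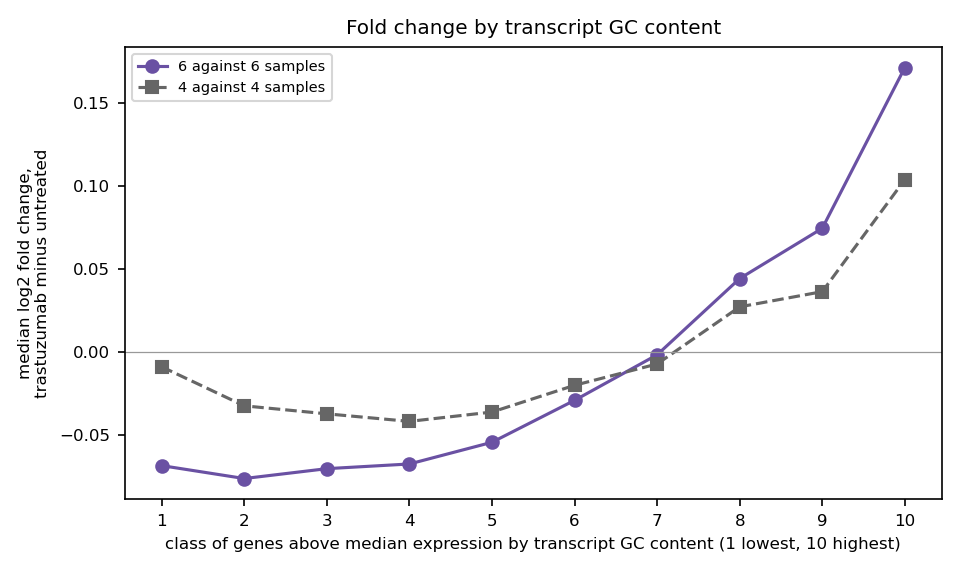
Median log2 fold change (trastuzumab minus untreated, y axis) of the 8493 genes above median expression in 10 classes by transcript GC content (x axis), for 6 against 6 samples and for 4 against 4 without B1, C1, E2 and B3. The median runs from -0.069 to 0.17 in the larger comparison and from -0.0092 to 0.10 in the smaller.

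At an adjusted p under 0.05, Phf14 and Casr were the genes lower with trastuzumab. Phf14, a gene for a chromatin-reading PHD finger protein, ran from 10.6 through a median of 10.6 to 10.9 in untreated samples and from 10.2 through 10.4 to 10.5 in trastuzumab samples. The groups did not overlap, with a log2 fold change of -0.29 ± 0.059 (SE, n = 6 per group; limma adjusted p = 0.0366). Casr, the calcium-sensing receptor, was near the lower end of the data, from 3.18 to 3.91 in untreated and from 2.88 to 3.07 in trastuzumab samples without overlap, and fell by 0.49 on the log2 scale (limma adjusted p = 0.0444). Ankrd37, a gene known to be induced by hypoxia, ran from 9.74 to 9.93 untreated and from 8.9 to 9.65 with trastuzumab without overlap, at a log2 fold change of -0.45 that did not pass (limma adjusted p = 0.085). The noncoding RNA Rn7sk had a log2 fold change of -1.04 (adjusted p = 0.489), the myo-inositol transporter Slc5a3 -0.42 (adjusted p = 0.287) and the snoRNA host gene Gas5 -0.29 (adjusted p = 0.324), of which only Gas5 showed no overlap between groups.

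Genes through which an antibody engages leukocytes were considered next. None of the 44 genes is on any of 32 lists of immune, stromal and tumor genes, for which 454 of 470 distinct genes had values. Over all genes only 0.247% were higher and 0.0118% lower at that threshold, so a count of 0 among 454 genes says little about the lists. Of 19 Fc receptor genes and their signaling partners, 13 were higher, 6 were lower and none had an unadjusted p under 0.05 in limma, and the median log2 fold change was 0.07. Single untreated samples decided the sign of that median, since it was -0.061 with 8 of 19 genes higher without B1 alone and 0.20 with 17 higher without C1 alone. Fcgr4, an activating receptor of mouse macrophages and neutrophils, ran from 12.3 through a median of 12.9 to 14.5 in untreated samples and from 12.5 through 13.5 to 13.7 in trastuzumab samples. The groups overlapped, with C1 highest and B1 lowest of all 12 samples, and the log2 fold change was 0.27 ± 0.24 (SE, n = 6 per group; limma adjusted p = 0.843).

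Fcgr1, the high-affinity receptor, ran from 12.6 through a median of 13.5 to 14.6 untreated and from 13.4 through 13.6 to 13.9 with trastuzumab, a log2 fold change of 0.059 ± 0.20 (SE, n = 6 per group). Fcgr3, the activating receptor of NK cells and macrophages, had -0.066 ± 0.16 and the inhibitory receptor Fcgr2b -0.026 ± 0.18. The shared signaling chain Fcer1g had 0.12 ± 0.18, and the smallest value of the list was that of the signaling gene Vav3 at -0.15 ± 0.098. Untreated C1 and B1 were the highest and the lowest sample for Fcgr1, Fcgr3 and Fcgr4, and without the 4 samples the log2 fold changes were 0.13, -0.015 and 0.37.

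Of 16 phagocytosis genes, 14 were higher with a median log2 fold change of 0.13, and none had an unadjusted p under 0.05. This became 10 higher and 0.024 without B1 alone, and 16 higher and 0.27 without C1 alone. Of 20 complement genes, 17 were higher with a median of 0.15, and 5 (C2, C3, C4b, C5ar1 and Serping1) had an unadjusted p under 0.05. The complement count and median became 11 and 0.019 without B1 alone, and 18 and 0.30 without C1 alone. Serping1, the inhibitor of the first complement component, ran from 7.61 through a median of 7.94 to 8.45 untreated and from 8.07 through 9.11 to 9.40 with trastuzumab. Trastuzumab G2 alone lay in the untreated range, and the log2 fold change of 0.98 ± 0.23 (SE, n = 6 per group) did not pass (limma adjusted p = 0.062). C1qa, the recognition component made by macrophages, had 0.15 ± 0.20.

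**Figure D4:**
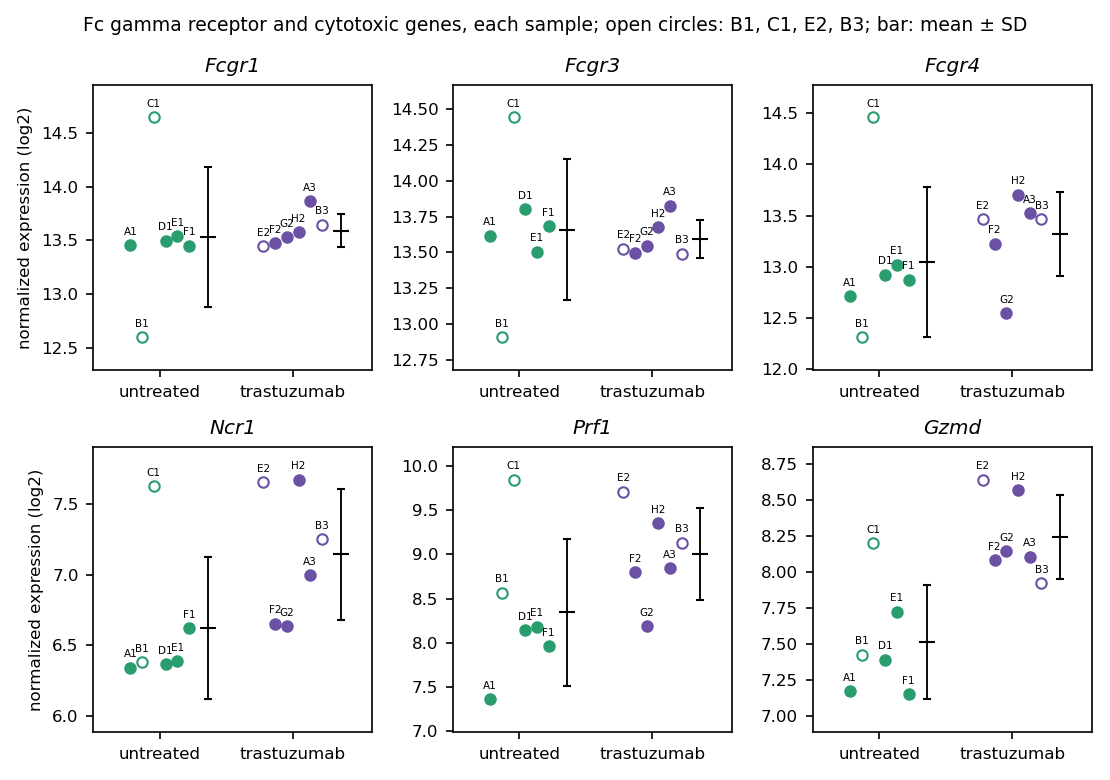
Normalized expression (log2, y axis) of 3 Fc gamma receptor genes and 3 cytotoxic genes in each untreated and trastuzumab sample (x axis), with the mean and SD of 6 samples as a bar and B1, C1, E2 and B3 as open circles. Untreated C1 is the highest untreated sample in all 6 panels, and no panel shows groups without overlap among all 12 samples.

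NK cell genes were higher in sign. All 14 measured NK cell markers had a higher mean with trastuzumab, with a median log2 fold change of 0.37, 0 passed an adjusted p of 0.05 and 4 (Ncr1, Klrd1, Klrc2 and Klre1) had an unadjusted p under 0.05 in limma. Ncr1, the NKp46 receptor that defines NK cells, ran from 6.34 through a median of 6.38 to 7.63 in untreated samples and from 6.63 through 7.13 to 7.68 in trastuzumab samples. Untreated C1 accounted for the overlap of Ncr1, and the log2 fold change was 0.52 ± 0.22 (SE, n = 6 per group; limma adjusted p = 0.484). Without B1, C1, E2 and B3 the groups of Ncr1 did not overlap and it was 0.56 ± 0.22 (limma adjusted p = 0.826; two-sided exact permutation p = 0.0286, the smallest that 4 against 4 samples allow). C1, which accounted for the overlap, is among the samples left out there. Over all genes in that comparison, 246 were higher and 340 lower without overlap, so the lack of overlap does not single out Ncr1.

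Klrc2, an activating NK receptor with close paralogs, had a log2 fold change of 0.61 ± 0.25 (limma adjusted p = 0.442), Klrk1, the NKG2D receptor, 0.21 ± 0.22 and Klrb1c, the NK1.1 antigen in other strains, 0.32 ± 0.25. The NK cell level ran from -0.58 to 0.85 untreated, where C1 was highest, and from -0.53 (G2) to 0.73 (H2) with trastuzumab. Without the 4 samples the level was 0.05 ± 0.52 with trastuzumab and -0.44 ± 0.11 untreated (SD, n = 4), and 6 of the 14 markers had an unadjusted p under 0.05.

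Of 15 genes of the cytotoxic machinery, 14 were higher with a median log2 fold change of 0.32, and 4 (Prf1, Gzmd, Gzme and Gzmf) had an unadjusted p under 0.05, which became a median of 0.51 and 9 genes without the 4 samples. Perforin, Prf1, ran from 7.36 through a median of 8.16 to 9.85 untreated and from 8.19 through 8.99 to 9.71 with trastuzumab. C1 was again the highest untreated sample, and the log2 fold change was 0.66 ± 0.30 (SE, n = 6 per group; limma adjusted p = 0.538) and 0.88 ± 0.26 without the 4 samples (adjusted p = 0.623). Gzmd ran from 7.15 through 7.41 to 8.20 untreated and from 7.92 through 8.13 to 8.64 with trastuzumab, a log2 fold change of 0.73 ± 0.20 (limma adjusted p = 0.14). The granzymes Gzmd, Gzme and Gzmf are close paralogs, so reads may be divided between them. Gzmb, the granzyme of cytotoxic lymphocytes, had 0.39 ± 0.29, and Gzmm had the lowest value of the list, -0.068 ± 0.12.

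T cell genes varied more between samples than between groups. Of 16 T cell markers, 15 were higher with a median log2 fold change of 0.20 and none had an unadjusted p under 0.05 in limma. The median was -0.071 without E2 alone and -0.031 without A1 alone, each with 6 of 16 markers higher, and 0.61 with 16 higher without B1 alone. Their level ran from -1.36 (A1) to 1.76 (B1) untreated and from -1.14 (G2) to 1.44 (E2) with trastuzumab. Cd3e, a chain of the T cell receptor complex, ran from 7.56 through a median of 8.56 to 10.1 untreated and from 7.89 through 8.69 to 10.3 with trastuzumab, 0.42 ± 0.48 (SE, n = 6 per group). Cd8a had 0.37 ± 0.36, Cd4 0.16 ± 0.61 and Foxp3, the factor of regulatory T cells, 0.34 ± 0.37. Each of these log2 fold changes was about as large as its SE or smaller. Cd8a without the 4 samples was 0.66 ± 0.32 (limma adjusted p = 0.994).

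Of 19 T helper genes, 16 were higher with a median of 0.23, and 3 (Il12rb2, Il6 and Il12b) had an unadjusted p under 0.05. Il12rb2, a chain of the interleukin-12 receptor, had the largest log2 fold change, 0.59 ± 0.26 (limma adjusted p = 0.523). Ifng, the interferon of type 1 responses, had 0.39 ± 0.37, which became 0.86 ± 0.29 without the 4 samples (limma adjusted p = 0.752). Of 14 checkpoint genes, 11 were higher with a median of 0.11, and none had an unadjusted p under 0.05. Pdcd1, encoding PD-1, had 0.29 ± 0.29, its ligand Cd274 0.12 ± 0.19 and Ctla4 -0.10 ± 0.39, and the last was 0.014 without the 4 samples.

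Among the 32 lists, the B cell list had the largest SD of its level in both groups, 1.68 with trastuzumab and 1.38 untreated (n = 6), and the samples left out decided its sign. All 12 B cell markers were higher over 6 against 6 samples, with a median log2 fold change of 0.15, whereas 1 of 12 was higher without the 4 samples and the median was -0.52. The level ran from -1.91 (A1) to 1.95 (B1) untreated and from -1.55 (G2) to 2.34 (E2) with trastuzumab, where B3 stood at 1.97. Ms4a1, encoding CD20, ran from 6.45 through a median of 8.48 to 11.1 untreated and from 6.84 through 8.16 to 11.2 with trastuzumab, 0.21 ± 0.91 (SE, n = 6 per group). Fcer2a, encoding CD23, had 0.078 ± 0.88 and -0.70 ± 0.90 without the 4 samples. Of 10 genes of naive lymphocytes and lymph nodes, 8 were higher with a median of 0.09, against 4 and -0.16 without the 4 samples, and Tcf7, a factor of naive T cells, had 0.40 ± 0.61. Of 7 plasma cell genes, 5 were higher with a median of 0.14, which became 0.053 without the 4 samples.

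**Figure D5:**
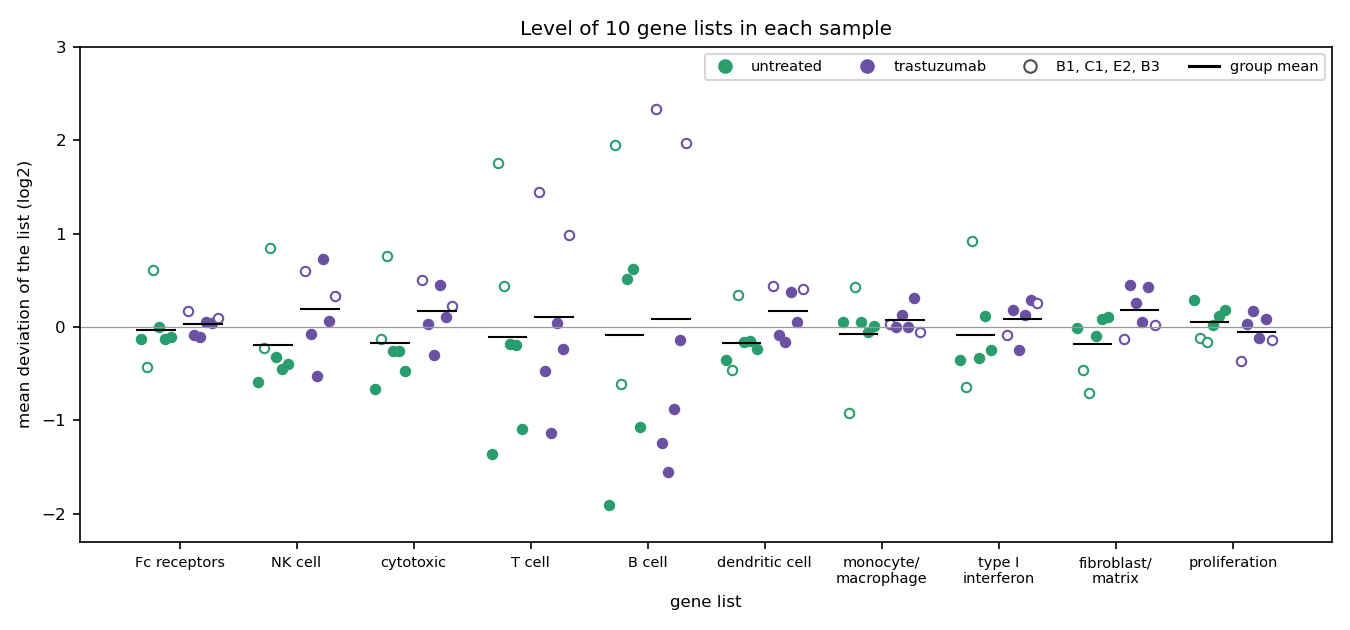
Level of 10 gene lists (mean deviation of the genes from their 12-sample averages, log2, y axis) in each untreated and trastuzumab sample, with group means as lines and B1, C1, E2 and B3 as open circles. B cell levels span -1.91 to 1.95 untreated and -1.55 to 2.34 with trastuzumab, and in all 10 lists the ranges of the groups overlap.

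Myeloid genes, which include those of the macrophages that can engulf antibody-coated cells, overlapped between groups. Of 20 monocyte and macrophage genes, 12 were higher with a median log2 fold change of 0.16, and 2 (Nos2 and Retnla) had an unadjusted p under 0.05 in limma. The median was 0.059 without the 4 samples and -0.034, with 9 of 20 genes higher, without B1 alone. Csf1r, the receptor for the macrophage growth factor, had 0.10 ± 0.18 (SE, n = 6 per group), Adgre1, the F4/80 antigen, 0.19 ± 0.22 and Ly6c2, a marker of inflammatory monocytes, 0.22 ± 0.20. Nos2, the inducible nitric oxide synthase of activated macrophages, ran from 11.6 through a median of 12.1 to 12.8 untreated and from 12.1 through 13.1 to 13.7 with trastuzumab. The groups of Nos2 overlapped, and the log2 fold change of 0.90 ± 0.22 did not pass (limma adjusted p = 0.083). Retnla, a gene of alternatively activated macrophages, had 1.01 ± 0.31 (adjusted p = 0.202), which became 0.44 without the 4 samples, and Chil3, also of that state, had -0.53 ± 0.35.

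All 15 dendritic cell genes were higher with a median log2 fold change of 0.32, and 5 (Zbtb46, Xcr1, Fscn1, Ccl22 and Cd40) had an unadjusted p under 0.05, which became 2 without the 4 samples. Xcr1, a receptor of cross-presenting dendritic cells, ran from 6.53 through a median of 6.73 to 8.56 untreated and from 6.63 through 7.76 to 8.37 with trastuzumab, 0.65 ± 0.29 (limma adjusted p = 0.523). Of 17 neutrophil genes, 16 were higher with a median of 0.21 (0.36 without the 4 samples) and 3 (Retnlg, Mmp9 and Lcn2) had an unadjusted p under 0.05, while S100a8, an abundant neutrophil transcript, had 0.17 ± 0.24. All 13 mast cell and eosinophil genes were higher with a median of 0.33, and 4 (Fcer1a, Prg2, Ccr3 and Siglecf) had an unadjusted p under 0.05, which became 0 without the 4 samples. Of 10 pan-leukocyte genes, 7 were higher with a median of 0.03 (0.079 without the 4 samples), and Laptm5, a lysosomal gene of hematopoietic cells, had 0.42 ± 0.10 (limma adjusted p = 0.0856).

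All 20 type I interferon response genes were higher in trastuzumab samples with a median log2 fold change of 0.15, and none had an unadjusted p under 0.05 in limma. Without the 4 samples the median was 0.29 and 2 had an unadjusted p under 0.05, whereas without B1 alone it was 0.050. Oas3, an antiviral enzyme, had the largest value, 0.42 ± 0.21 (SE, n = 6 per group; limma adjusted p = 0.581). The interferon level ran from -0.65 (B1) to 0.92 (C1) untreated and from -0.24 (G2) to 0.28 (A3) with trastuzumab, so both ends came from untreated samples that were left out. Of 16 interferon gamma response genes, 16 were higher with a median of 0.27, and Gbp5, a guanylate-binding protein of that response, had 0.37 ± 0.20. All 13 genes of MHC class I presentation were higher with a median of 0.12, and 10 of 11 class II genes with 0.23, which became 9 and 0.10 without the 4 samples. Tapbp, which loads peptides onto class I, had 0.46 ± 0.12 (limma adjusted p = 0.0856) and Cd74, the class II invariant chain, 0.52 ± 0.21 (adjusted p = 0.434). Genes of these lists share control by interferons, so they are not separate measurements.

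Of 16 chemokine genes, 14 were higher with a median log2 fold change of 0.21, and 3 (Ccl5, Cxcl12 and Cxcl13) had an unadjusted p under 0.05. The chemokine count and median became 10 and 0.055 without B1 alone, and 15 and 0.28 without C1 alone. Cxcl12, a chemokine made largely by stromal cells, ran from 5.93 through a median of 6.17 to 6.70 untreated and from 6.26 through 7.25 to 7.72 with trastuzumab, and its log2 fold change of 0.94 ± 0.25 (SE, n = 6 per group) did not pass (limma adjusted p = 0.118). All 15 inflammatory cytokine genes were higher with a median of 0.29, and 4 (Tnf, Il27, Ebi3 and Tgfb1) had an unadjusted p under 0.05. The cytokine count and median became 12 and 0.13 without B1 alone, and 15 and 0.36 without C1 alone.

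Genes of the tumor cells and of cell state had no member at an adjusted p under 0.05 in limma. The transgene for human HER2 is not a gene of this mouse table, and its mouse counterpart Erbb2 ran from 8.22 through a median of 9.30 to 9.71 untreated and from 8.89 through 9.56 to 9.96 with trastuzumab, 0.33 ± 0.26 (SE, n = 6 per group). Of 11 ErbB pathway genes, 7 were higher with a median of 0.03. Of 12 epithelial and tumor markers, 6 were higher, Epcam had -0.041 ± 0.29, and Krt14, a basal keratin, did not overlap between groups at 0.48 ± 0.23 (limma adjusted p = 0.576), with E2 as its highest sample. Of 20 proliferation genes, 16 were lower with a median log2 fold change of -0.15, none had an unadjusted p under 0.05, and Mki67, a marker of cycling cells, had -0.15 ± 0.13 and the mitotic motor gene Kif11 -0.25 ± 0.13. Of 16 hypoxia and glycolysis genes, 7 were higher, and only Ankrd37 had an unadjusted p under 0.05. Of 16 genes that respond to tissue dissociation, 8 were higher with a median of 0.03, and they went both ways, with 3 higher (Jund, Zfp36 and Socs3) and 1 lower (Hspa8) at an unadjusted p under 0.05 and values from -0.29 to 0.55 (Jund). Without the 4 samples 12 of these 16 were higher with a median of 0.10. Of 14 genes of p53 and DNA damage, 13 were higher with a median of 0.12, and 2 (Gdf15 at 0.60 and Zmat3 at 0.36) had an unadjusted p under 0.05. Of 6 adipose and muscle genes, 4 were higher with a median of 0.03.

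Untreated samples varied more among themselves than trastuzumab samples when all were counted, and this rested on the samples left out. The median SD of a gene was 0.18 over the 6 trastuzumab and 0.22 over the 6 untreated samples, and it was larger in untreated samples for 63.9% of genes. Over 4 samples in each group the medians were 0.14 and 0.13, and 45.2% of genes had the larger SD in untreated samples.

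Trastuzumab was last set against the conjugates that carry a drug on a HER2 antibody, at their own doses of 15 mg/kg for T-DM1 and 1 mg/kg for T-PNU, so the doses differ. In the same fit, 110 genes (0.647%) differed between trastuzumab and T-DM1 at an adjusted p under 0.05, and of the 44 genes Nid1 was the one that did, higher with trastuzumab by 0.77 ± 0.18 (SE, n = 6 per group; limma adjusted p = 0.0456). Without B1, C1, E2 and B3, 0 of the 44 passed against T-DM1, Nid1 included, while 118 of all 16996 genes were higher and 20 lower with trastuzumab. Between trastuzumab and T-PNU, 1 gene (0.00588%) differed, the carboxylesterase Ces2e, lower with trastuzumab at -0.80 ± 0.13 (limma adjusted p = 0.0275), and it is not one of the 44. Without B1, C1, E2 and B3 the count against T-PNU was 2289 of 16996 genes higher and 2476 lower with trastuzumab. In that fit 5 of the 44 genes passed against T-PNU.

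The 3 treated groups share the 6 untreated samples, so their fold changes against untreated are not independent, and the 44 genes were selected on the trastuzumab values. All 42 higher genes were also higher than untreated with T-DM1 and with T-PNU. Their median log2 fold changes were 0.43 and 0.31, against 0.55 for trastuzumab. At an adjusted p under 0.05 in limma, 24 of the 44 passed for T-DM1, where 699 of 16996 genes were higher and 366 lower. For T-PNU 3 of the 44 passed, where 23 genes were higher and 9 lower. Sfrp4 had log2 fold changes against untreated of 1.25 for trastuzumab, 0.65 for T-DM1 and 0.58 for T-PNU. Has1 had 1.26, 0.67 and 0.35 in that order, and Col5a2 had 0.96, 0.43 and 0.25. Prelp had 1.05, 1.06 and 0.79, Rela had 0.42, 0.43 and 0.28, and Bcl3 had 0.51, 0.54 and 0.48. Trastuzumab minus T-DM1 was 0.60 ± 0.20 for Sfrp4 (SE, n = 6 per group; limma adjusted p = 0.162) and 0.59 ± 0.21 for Has1 (adjusted p = 0.174), so neither difference passed.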

How the data were processed

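RNA-seq of CD45+ cells was deposited as normalized log2 values for 16996 genes in 24 samples. The authors mapped reads with STAR 2.4.2a, counted them with featureCounts of Subread 1.5.0 (reversely stranded, build mm10 in the submitters' processing notes) and removed genes averaging under 5 counts. The step that gave the log2 values is not given in the sources used here, counts were not analysed here, and the depth of each sample is unknown, so limma replaced the study's count model. Linear models (limma 3.58.1, R 4.3.3; lmFit, contrasts.fit, eBayes with a trend) held all 24 samples in 4 groups with no covariate, and p-values were adjusted over all genes by Benjamini-Hochberg. P-values of single genes also came from two-sided exact permutation tests over samples. Symbols came from the file, and 99.6% of identifiers matched GENCODE M21 (GRCm38). Promoter sequences came from RefSeq. No separate cultures or litters are labelled, so p-values measure the spread between mice.

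The comparison, gene lists and tests were chosen with earlier results of these data known. Genes named were a panel of immune and tumor genes, each list's members of largest and smallest log2 fold change, the 10 largest rises and falls above median expression, the 10 smallest p in each direction and genes without overlap. Other genes at an adjusted p under 0.05 were named after their values were seen, as were list members counted at an unadjusted p under 0.05, and some genes under the rule are not reported. Alternatives were other samples, scalings, filters, weights and each sample left out; removal of GC content and length trends (loess, span 0.3) was chosen after seeing the data. Steps were tested on simulated data. Figures used Python 3.11.15 and matplotlib 3.10.9.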

Additional observations from a re-analysis of the deposited data

Results flagged for a closer look

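Samples far from the other 5 of their group were sought with Dixon's test in 240 sets of 6 values, from 88 genes and 32 gene lists, and 26 were found. Chance flags about 1 set in 20, and sets from related genes are not independent. The cause of each value was not tested.

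Untreated C1 was high for Fcgr4 (14.5), Ncr1 (7.63), Klrk1 (11.8), Klrc2 (6.50), Gzmb (12.4) and Xcr1 (8.56) on the log2 expression scale, and for the levels of the NK cell list (0.85) and the cytotoxic list (0.76). Untreated B1 was high for Cd4 (12.2), Tcf7 (12.1) and Gas5 (13.0), and low for the levels of the monocyte and macrophage list (-0.92), the inflammatory cytokine list (-0.73) and the hypoxia and glycolysis list (-0.35). C1 and B1 are among the 4 samples that the second reading of the comparison left out.

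Trastuzumab G2 was low for Efemp1 (5.38), Serping1 (8.07), Gas5 (11.9) and the level of the interferon gamma list (-0.67). Trastuzumab H2 was low for Stk40 (11.7) and Sf3a2 (9.96), F2 was high for Mboat7 (11.1) and E2 for Krt14 (5.74). Untreated E1 was high for Rela (12.2), Zfp703 (11.04) and the level of the p53 and DNA damage list (0.085), and A1 for Podn (3.44).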

How the results depend on the processing

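The study's thresholds gave 0 genes in most fits, 2 with sample weights, and between 0 and 12 with 1 sample left out; an adjusted p under 0.05 with no fold threshold gave the 44. The 42 higher and 2 lower genes became 0 and 0 without B1, C1, E2 and B3, with only the 12 samples of the 2 groups and with only their 8 samples, 26 and 1 among genes above median expression, and 163 and 32 with sample weights; the lower count was 1 without the trend. With 1 sample left out they ran from 0 to 93 and from 0 to 4. Genes without overlap, 50 higher and 42 lower, became 246 and 340 without the 4 samples, 27 and 17 above median expression, and 52 to 166 and 49 to 104 with 1 sample left out. The adipose and muscle median became 0.28 above median expression. No list had a member at an adjusted p under 0.05 in the main fit. With sample weights the cytotoxic and the fibroblast and matrix lists had 2 higher each. The complement, monocyte and macrophage, MHC class I, chemokine, inflammatory cytokine and pan-leukocyte lists had 1 higher each, and the hypoxia and glycolysis list had 1 lower. Leaving out C1, E1, G2 or H2 alone also gave members, at most 2 in a list. All 44 genes kept their sign in every fit that held them, but these fits reuse the samples on which the genes had been selected. Fewer samples enter the smaller fits; otherwise the cause was not tested.

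Gene signs turned as follows. Without the 4 samples, in fits of 20 or 8 samples, Ms4a1 was -0.46, Fcer2a -0.70, Ptprc 0.081 and Ctla4 0.014, and with sample weights -0.20, -0.44, 0.074 and 0.026. Ptprc was 0.0073 with quantile normalization and 0.023 with the GC trend removed, where Fcgr2b was 0.029. With 1 sample left out, the log2 fold change ran from -0.059 to 0.31 for C1qa, -0.14 to 0.65 for Cd4, -0.082 to 0.21 for Csf1r, -0.31 to 0.20 for Ctla4, -0.23 to 0.13 for Epcam, -0.064 to 0.26 for Fcer1g, -0.42 to 0.52 for Fcer2a, -0.13 to 0.28 for Fcgr1, -0.21 to 0.11 for Fcgr2b, -0.22 to 0.091 for Fcgr3, -0.27 to 0.73 for Ms4a1 and -0.11 to 0.088 for Ptprc. Medians of lists that turned sign with 1 sample left out ran from -0.061 to 0.20 for Fc receptors, -0.071 to 0.61 for T cells, -0.33 to 0.56 for B cells, -0.050 to 0.28 for plasma cells, -0.25 to 0.47 for naive lymphocytes, -0.034 to 0.24 for monocytes and macrophages, -0.024 to 0.13 for pan-leukocyte genes, -0.11 to 0.12 for dissociation genes, -0.095 to 0.029 for hypoxia genes, -0.014 to 0.065 for adipose and muscle genes and -0.056 to 0.12 for tumor markers. The dissociation median was also -0.040 with the GC trend removed, and the B cell median -0.22 with sample weights.

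No paired analysis was possible because the labels give no replicate numbers that tie untreated mice to trastuzumab mice. The depth of the samples is unknown, so counting error cannot be given.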
